A study of Mus musculus with 4 samples.

Results

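The Myc family and its partners in the Max network were followed across thymocyte development in control mice and in mice lacking Tox4 in T cells. The 9 genes were chosen by name as members of this network: the activators Myc, Mycn and Mycl, their common partner Max, the Max-binding repressors Mxd1, Mxd3, Mxd4 and Mxi1, and Mnt. They are 9 of the 32285 genes counted. Single-cell RNA sequencing (scRNA-seq, 10x 3′ chemistry with unique molecular identifiers, UMIs) was performed on whole thymocytes of 4 mice aged 6 to 8 weeks, each giving 1 library. The 2 control mice carried floxed Tox4 alleles without Cre (genotype Tox4;F/F), and the 2 conditional knockout mice (cKO, Tox4;F/F;Lck+) carried the same alleles and a Cre driven by the proximal Lck promoter, which acts in T lineage cells from the DN3 stage on. Groups were littermates of matched sex on a C57BL/6 background, both groups had exons 4 to 6 of Tox4 flanked by loxP sites, and cells that precede DN3 or belong to other lineages are not targets of this Cre.

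MYC proteins bind DNA as dimers with MAX, at a motif called the E-box, and raise the transcription of genes for ribosome biogenesis, nucleotide and polyamine synthesis and cell cycle entry. MXD proteins, MXI1 and MNT compete for MAX, bind the same motif and recruit SIN3 and histone deacetylases, so that the balance between both sides differs between dividing and resting cells. In the thymus, Myc is known for its role in the growth burst of CD4-CD8- double negative (DN) cells after β-selection. Cells then pass through a cycling CD4+CD8+ double positive (DP) blast stage before they stop dividing and rearrange the TCRα locus.

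Myc (ENSMUSG00000022346) lies on chromosome 15 of GRCm38 from 61985391 to 61990374 on the plus strand, Mycn (ENSMUSG00000037169) on chromosome 12 from 12936093 to 12941914 on the minus strand, and Mycl (ENSMUSG00000028654) on chromosome 4 from 122995652 to 123002485 on the plus strand. Max (ENSMUSG00000059436) lies on chromosome 12 from 76937269 to 76962201 on the minus strand. Of the repressors, Mxd1 lies on chromosome 6 from 86647042 to 86669161, Mxd3 on chromosome 13 from 55325168 to 55329823, Mxd4 on chromosome 5 from 34173883 to 34187720, Mxi1 on chromosome 19 from 53310518 to 53375810, and Mnt on chromosome 11 from 74830920 to 74845725. These positions span each gene from first to last exon in GENCODE M21.

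The canonical E-box bound by MYC and MAX, CACGTG, reads the same on both strands. It was searched in the RefSeq promoters of GRCm38.p6, each a window from 250 bases before to 50 bases after a transcription start, and 7.15% of all 32851 windows held it. A window was found for 8 of the 9 genes, and Max, Mxd4 and Mnt had the motif in 3 of the 10 windows of these genes. The sites are shown because the network can bind its own members, each 5′ to 3′ on the gene's strand with the E-box in capitals.
Max, chromosome 12, 76962234 to 76962263, minus strand: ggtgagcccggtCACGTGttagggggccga
Mxd4, chromosome 5, 34187912 to 34187941, minus strand: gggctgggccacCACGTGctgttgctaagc
Mnt, chromosome 11, 74830789 to 74830818, plus strand: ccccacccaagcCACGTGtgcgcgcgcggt
A match says that these letters are in the window and nothing about binding in thymocytes.

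Libraries held 11790 to 17347 cell barcodes and 42716798 to 62007453 UMIs, and 36 to 70 barcodes were shared by any pair of libraries. More than 10% mitochondrial UMIs were found in 48.3% and 46.1% of the barcodes of control 1 and cKO 1, against 20.6% and 23.1% in control 2 and cKO 2, so this measure followed the replicate number and not the genotype. After filtering, 33414 cells remained, of which 6 αβ T cell classes are used here: DN (640 cells), DP blasts (DPbla, 2888), DP cells in rearrangement (DPre, 16940), DP cells under selection (DPsel, 5578), CD4 single positive cells (CD4SP, 1795) and CD8 single positive cells (CD8SP, 934). In the check of these names, DN markers such as Il2ra and Notch3 summed to between 1311 and 1620 CPM (UMI counts per 1000000 UMIs) in DN against at most 85.0 in the other 5 classes, and cycling markers such as Mki67 and Top2a summed to between 5179 and 5717 CPM in DPbla against at most 1189. The CD8SP list did not set its class apart, since it holds Cd8a and Cd8b1, which DP cells carry too: it summed to between 2550 and 3188 CPM in CD8SP, 3456 and 5036 in DPre, and 1737 and 3216 in DPbla. The 9 genes were kept out of the genes used for clustering. Tox4 itself had 78.2 and 82.1 CPM in control and 65.1 and 66.6 CPM in cKO DPre cells, and it passed the test in none of the 6 classes. Counting at the 3′ end may read Tox4 RNA outside the deleted exons, and read positions were not analysed here. This level therefore does not check the labels.

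The plot of levels by class shows where each gene was most abundant. All levels below are CPM of the UMIs summed over the cells of a class in 1 library, so each class gives 1 value per mouse. Classes were drawn from these same cells, so their order is a description, and neighbouring classes are said to differ only where the ranges of the 4 libraries do not overlap.

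**Figure D1:**
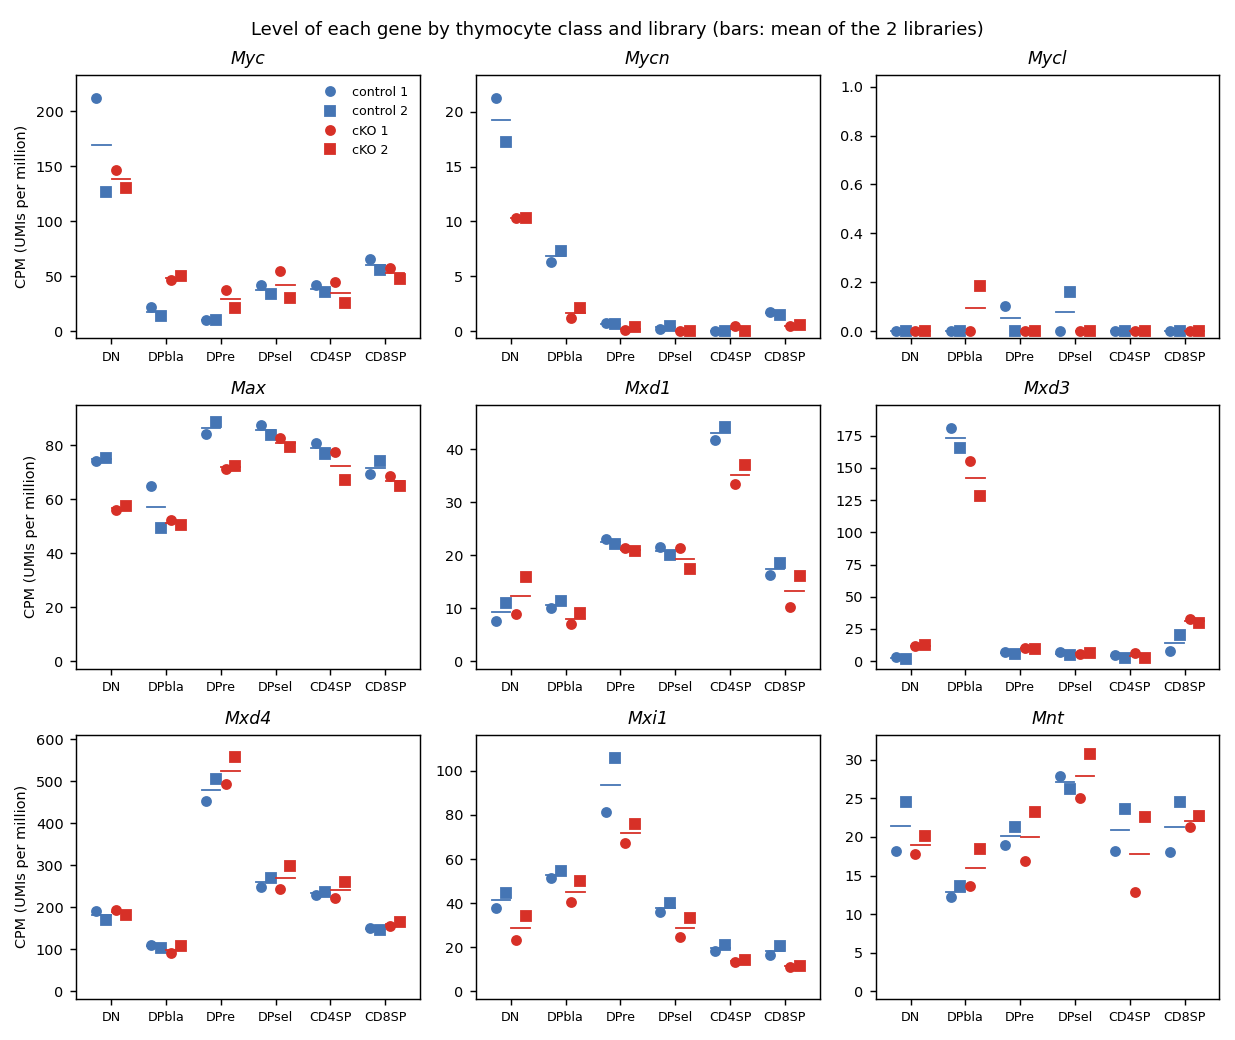
Level of each of the 9 genes (y axis, CPM, each panel with its own scale from 0) in the 6 αβ T cell classes (x axis); points are the 4 libraries and bars the mean of the 2 libraries of a genotype. Myc and Mycn stand highest in DN, Mxd3 in DPbla, Mxd4 and Mxi1 in DPre and Mxd1 in CD4SP, and Myc of both cKO libraries lies above both controls in DPbla and DPre.

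Myc was highest in DN cells, at 154 ± 40.0 CPM (SD over the 4 libraries), and its DN range of 126 to 212 did not overlap with any other class. CD8SP came next with 56.4 ± 7.63 CPM, followed by DPsel (39.9 ± 10.98), CD4SP (36.6 ± 8.49), DPbla (33.0 ± 18.3) and DPre (19.4 ± 13.0), and each of these overlapped with its neighbour. Not all later classes overlapped, as the CD8SP libraries (47.2 to 65.8 CPM) lay above every CD4SP (25.2 to 44.2) and DPre (9.64 to 37.2) library. Within the 2 control libraries alone, DPsel (41.5 and 33.7 CPM), DPbla (21.5 and 13.5) and DPre (9.81 and 9.64) were also separate. Within DPsel, Myc was concentrated in cluster 14 (led by Nr4a1 and Tnfrsf9), with 71.6 to 140 CPM, against 6.18 to 15.3 CPM in cluster 3 and 21.4 to 48.3 CPM in cluster 4.

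Mycn, a paralog of Myc, followed the same start at a far lower count. Its level was 14.8 ± 5.42 CPM in DN, 4.23 ± 3.03 in DPbla and 1.06 or less on average in each of the other classes. The DN and DPbla ranges (10.3 to 21.2 and 1.16 to 7.26 CPM) did not overlap. Mycl was close to absent from αβ cells: 4 UMIs were found in the 6 classes together, and in DN the 0 UMIs allow a level of up to 1.19 CPM in the deepest library (3 counts, counting error only).

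Max, which every dimer needs, varied least, from 54.2 ± 7.20 CPM in DPbla to 83.4 ± 3.35 in DPsel, and each class overlapped with the next. Mnt, the most evenly expressed repressor, ranged from 14.5 ± 2.71 CPM in DPbla to 27.5 ± 2.45 in DPsel, and the DPsel libraries lay above those of the next class, CD8SP. The remaining repressors were strongly stage dependent.

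Mxd3, a repressor gene known for expression in S phase, reached 157 ± 21.8 CPM in DPbla, with all 4 libraries (129 to 180) above every library of any other class. CD8SP followed at 22.7 ± 11.2 CPM, and the others had means between 4.10 and 8.14 CPM. Inside DPbla, Mxd3 was at 206 to 278 CPM in clusters 11 and 12 (led by Ube2c and Cenpf, and by Hist1h1b and Rrm2), against 27.7 to 48.6 CPM in cluster 7 (led by Hells and Mcm3).

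Mxd4 was highest in another class. It reached 502 ± 43.6 CPM in DPre cells, was 265 ± 24.1 in DPsel, 238 ± 16.2 in CD4SP, 185 ± 10.5 in DN and 155 ± 8.58 in CD8SP, and was lowest in DPbla with 103 ± 8.45 CPM. Of these neighbours, only DPsel and CD4SP overlapped. Inside DPbla, Mxd4 was at 31.7 to 43.3 CPM in the Rrm2-rich cluster 12, 88.9 to 118 in cluster 7 and 142 to 181 in cluster 11. Clusters 11 and 12, both high in Mxd3, thus differed in Mxd4. The DPre class includes cluster 16 (635 cells), which the mitotic genes Ccnb2, Cenpa and Cdc20 are among those leading. There Mxd4 was at 402 to 486 CPM and Mxd3 at 6.14 to 14.2 CPM. Mxi1 was also highest in DPre (82.7 ± 16.6 CPM), with DPbla next (49.1 ± 6.05), and lowest in CD8SP (14.9 ± 4.43). Mxd1, which is associated with differentiation, was highest in CD4SP (39.1 ± 4.82 CPM), above DPre (21.8 ± 0.955), and lowest in DPbla (9.35 ± 1.83). It was also high inside DPsel in cluster 14, with 33.0 to 49.8 CPM against 13.0 to 20.1 CPM in clusters 3 and 4.

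The genes whose profile over the 14 αβ clusters of at least 100 cells was most like that of 4 members were listed among 6171 genes, as Pearson correlations of log2(CPM + 5) with no test, since clusters share libraries and were drawn from the same cells. Closest to Myc were Hspe1, a mitochondrial co-chaperonin (r = 0.902), the spermidine synthase Srm (0.899), the tRNA methyltransferase Mettl1 (0.896) and the nucleolar chaperone Npm1 (0.890). Closest to Mycn were Lta4h (0.905), Dtnbp1 (0.893), Tmem121 (0.891) and the receptor Notch1 (0.880). Mxd3 was followed by mitotic genes, namely the kinase Aurkb (0.991), the kinetochore gene Spc25 (0.989), the cyclin Ccnf (0.989) and the spindle midzone gene Prc1 (0.986). The 4 closest to Mxd4 were the repressor Hbp1 (0.981), Letm2 (0.966), Amn1 (0.962) and 5031425E22Rik (0.960).

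The comparison of cKO with control asked in which class loss of Tox4 changed these genes. Summed UMI counts of the 4 libraries were tested with edgeR's quasi-likelihood test in each class, with Benjamini-Hochberg adjustment over every gene tested in that class; calls are those with an adjusted p under 0.05. Of the 54 pairs of gene and class, 44 had enough counts to be tested, and 3 were called: Myc was higher in cKO DPbla and DPre cells, and Mycn was lower in cKO DPbla cells. Among all genes tested, 2.48% were called in DPbla and 1.45% in DPre. The share was 0.0341% in DN, 0.270% in DPsel, 0.204% in CD4SP and 0.0220% in CD8SP, where none of the 9 genes was called by edgeR, although 2, 1, 1 and 2 of them had an unadjusted p under 0.05 (as did 7.60%, 9.07%, 7.94% and 6.94% of all genes tested in these 4 classes).

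**Figure D2:**
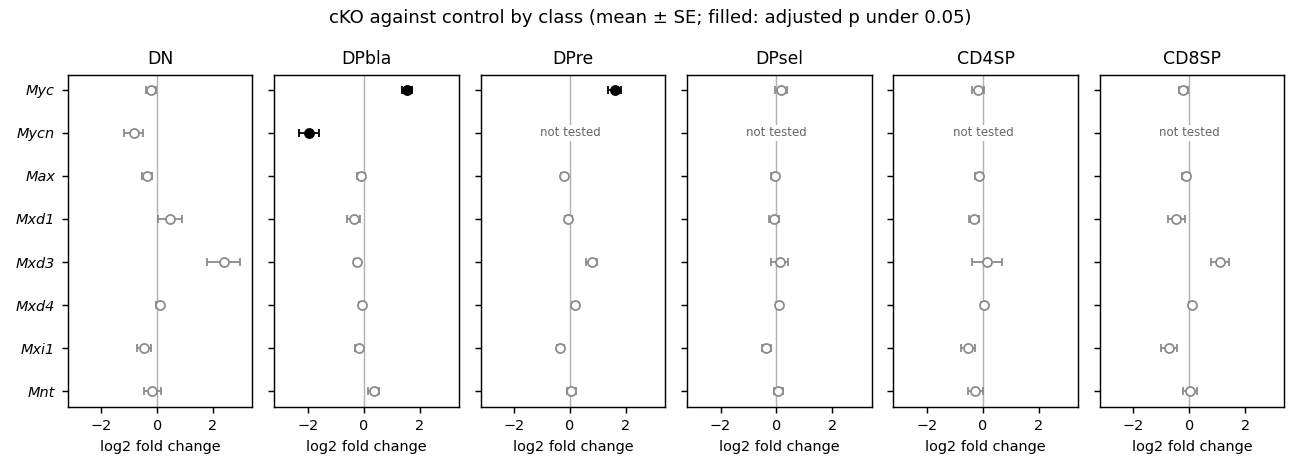
Fitted log2 fold change of cKO over control (x axis, point ± SE) of 8 genes in 6 classes, 2 libraries per genotype; filled points have an adjusted p under 0.05. Myc in DPbla (1.56) and DPre (1.60) and Mycn in DPbla (-1.95) are filled, and Mycn had too few counts to be tested in 4 classes.

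In DPbla, Myc had 21.5 and 13.5 CPM in control and 46.9 and 50.2 CPM in cKO libraries, from 80 to 540 UMIs each. Both cKO libraries lay above both controls, as they did for 18.3% of all genes tested, with a log2 fold change of 1.56 ± 0.17 (SE; adjusted p = 0.000321 by edgeR). In DPre, Myc had 9.81 and 9.64 CPM in control and 37.2 and 21.0 CPM in cKO libraries (log2 fold change 1.60 ± 0.23, edgeR adjusted p = 0.00371). Both cKO libraries again lay above both controls, as they did for 18.5% of all genes tested in DPre, and cKO 1 was higher than cKO 2. When all DP cells were summed, the values were 20.4 and 16.5 against 44.2 and 32.6 CPM (1.11 ± 0.15, edgeR adjusted p = 0.000884), where 5.71% of all genes were called. This sum mixes stages whose shares moved with genotype: DPbla gave 22.4% and 23.3% of its UMIs in control and 34.98% and 33.5% in cKO libraries (9.22% and 8.67% against 14.4% and 12.7% of its cells). The part of this shift in values over all DP cells was not tested.

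Myc was also read within single clusters. The share of cluster 7, where Myc was highest among the blasts, was 36.1% and 37.8% of DPbla cells in control and 42.6% and 46.0% in cKO libraries. Within cluster 7, Myc had 39.4 and 25.1 CPM in control against 69.6 and 73.2 CPM in cKO libraries (log2 fold change 1.25 ± 0.18, edgeR adjusted p = 0.000682). Cluster 11 had 10.4 and 6.40 against 25.0 and 26.4 CPM (1.66 ± 0.29, edgeR adjusted p = 0.00767), and cluster 12 had 14.4 and 7.87 against 35.4 and 34.7 CPM (1.78 ± 0.30, edgeR adjusted p = 0.000114). Genes called higher in cKO made up 1.09%, 0.253% and 0.301% of those tested in clusters 7, 11 and 12. Among DPre cells, Myc was also higher in cluster 1 (10.2 and 11.1 against 40.5 and 22.2 CPM) and cluster 2 (10.97 and 7.03 against 38.1 and 20.7 CPM), where edgeR called 1.02% and 0.752% of all genes higher. In clusters 9 and 16, where Myc was not tested, it had 9.5 and 3.996 against 21.8 and 13.2 CPM and 1.54 and 8.66 against 12.4 and 14.4 CPM. These fits in single clusters were added after the data were seen.

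**Figure D3:**
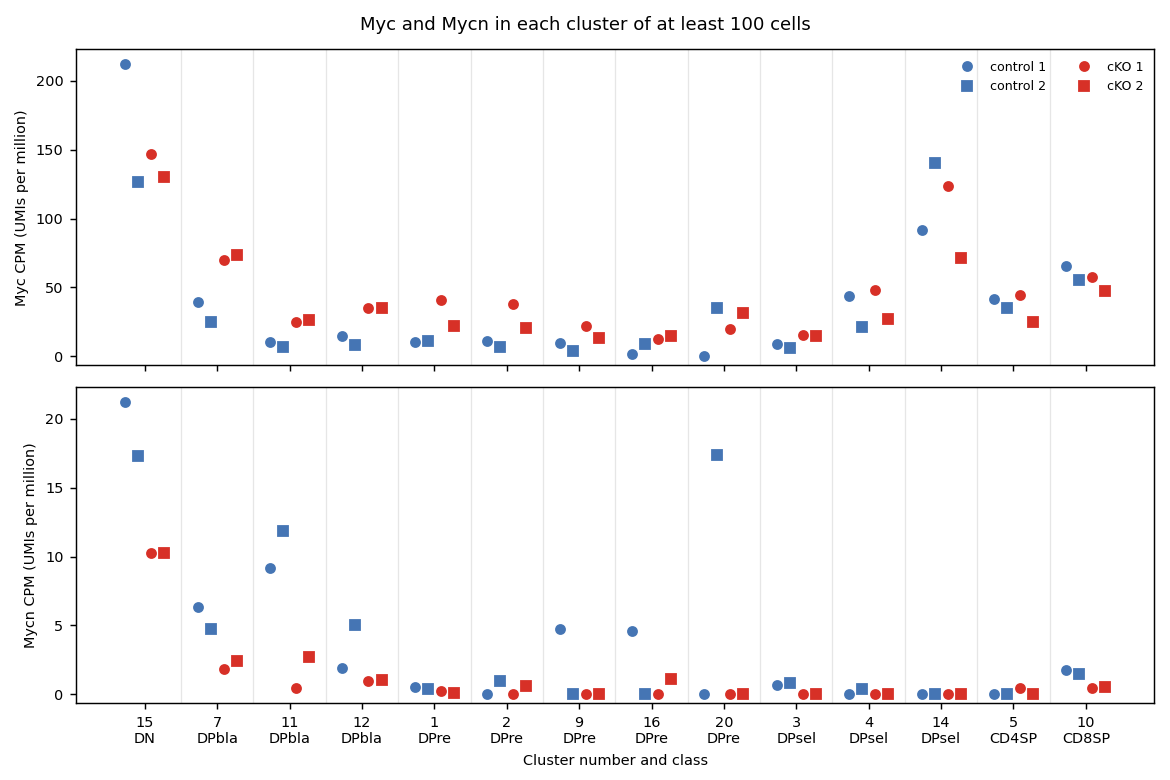
Level of Myc (top) and Mycn (bottom) in CPM (y axis, from 0) in each αβ cluster of at least 100 cells (x axis, ordered by class); each point is 1 library. For Myc, both cKO libraries lie above both controls in clusters 7, 11, 12, 1, 2, 9, 16 and 3, and the 2 groups overlap in clusters 15, 20, 4, 14, 5 and 10. For Mycn, both cKO libraries lie below both controls in clusters 15, 7, 11, 12, 1, 3 and 10. Of these, clusters 1, 3 and 10 hold only 8, 3 and 8 Mycn UMIs in all. The single high Mycn point in cluster 20 comes from 1 UMI. How often other genes separate in this way in single clusters was not counted.

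In DN, DPsel, CD4SP and CD8SP, Myc of the 2 groups overlapped. It had 212 and 126 CPM in control and 147 and 130 CPM in cKO DN cells (log2 fold change -0.23 ± 0.18, edgeR adjusted p = 0.839), and 41.5 and 33.7 against 54.6 and 29.6 CPM in DPsel (0.16 ± 0.21, edgeR adjusted p = 0.895). Within DPsel, cluster 3 had 8.71 and 6.18 CPM in control and 15.3 and 14.8 CPM in cKO libraries, without a call (1.08 ± 0.35, edgeR adjusted p = 0.193). Clusters 4 and 14 had log2 fold changes of 0.22 ± 0.27 and -0.25 ± 0.22, also without a call. CD4SP cells had 41.8 and 35.3 CPM in control and 44.2 and 25.2 CPM in cKO libraries. For CD8SP cells these levels were 65.8 and 55.1 CPM against 57.5 and 47.2 CPM. The difference between classes was tested itself, as an interaction of class and genotype with the library as a block. The genotype change of Myc was larger in DPbla than in DN by 1.75 ± 0.26 on the log2 scale (edgeR adjusted p = 0.000319), and smaller in DPsel than in DPre by 1.41 (log2 difference -1.41 ± 0.25, edgeR adjusted p = 0.00808), in tests that called 0.319% and 0.0259% of all genes. The second of these calls was lost without control 1 (-1.29, edgeR adjusted p = 0.251) or control 2 (-1.56, edgeR adjusted p = 0.0523). Between DPre and DPbla it differed by -0.05 ± 0.28 (edgeR adjusted p = 0.986).

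The share of cells with a Myc UMI moved in the same direction. After thinning each cell to 1000 UMIs, it was 1.52% and 1.52% of control and 3.66% and 5.13% of cKO DPbla cells, and 0.910% and 0.984% of control and 3.37% and 1.93% of cKO DPre cells. Without thinning, it was 11.4% and 10.5% against 23.5% and 21.9% in DPbla, at median depths between 8492.5 and 10529 UMIs, and 2.69% and 2.503% against 8.79% and 4.497% in DPre. An exact permutation test of 2 against 2 libraries gave p = 0.3333 (two-sided) for both classes, which is the smallest it can give. Free RNA contributes to such shares, so cells of other lineages were read beside them. In the mononuclear phagocyte class (MPS), whose droplets also held 859 to 1766 CPM of DPre marker RNA, the thinned share was 0% and 0.741% in control and 2.5% and 2.52% in cKO libraries at median depths of 861 to 1693 UMIs, from 36 UMIs in all. The DPre shares of 0.910% to 3.37% were thus near the MPS shares of the same genotype. The DPbla shares lay above the MPS shares in each of the 4 libraries. The cKO minus control difference was 2.88 points in DPbla and 1.705 in DPre, against 2.14 in MPS and 6.96 in B cells. The part of free RNA in the DPbla and DPre results was not tested. In B cells, Myc had 0 UMIs in both control libraries (up to 14.7 and 18.8 CPM allowed by 3 counts) and 8 UMIs in each cKO library, or 58.9 and 41.9 CPM, too few to be tested.

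Several other values moved with Myc. DN markers summed to 25.9 and 24.8 CPM in control and 42.6 and 39.1 CPM in cKO DPbla cells, with Myl10 called (log2 fold change 0.99 ± 0.23, edgeR adjusted p = 0.0364), and to 31.9 and 32.4 against 58.6 and 55.9 CPM in DPre, with Notch3 and Myl10 called. Cycling markers summed to 231 and 155 against 303 and 285 CPM in DPre, with Top2a and Pclaf called, while in DPbla they were 5717 and 5626 against 5318 and 5179 CPM with none called. The CD8SP marker list was lower in cKO libraries in both classes, with 3216 and 2612 against 2100 and 1737 CPM in DPbla and 5036 and 4275 against 3799 and 3456 CPM in DPre. Of this list, the co-receptor gene Cd8a was called lower (log2 fold change -0.68 ± 0.13 in DPbla and -0.55 ± 0.11 in DPre) and the transcription factor gene Runx3 higher (9.27 and 13.3 against 21.0 and 23.8 CPM in DPbla, and a log2 fold change of 0.97 ± 0.17 in DPre). Single markers of other lists were called as well, among them Cd4 (-0.45 ± 0.11) lower and Tcrg-C1 (1.39 ± 0.27) higher in DPbla, and Hbb-bs (0.98 ± 0.19) higher in DPre. The part of these in the Myc result was not tested. Immediate-early genes (Fos, Jun, Junb, Ier2, Egr1 and Dusp1), which respond to tissue dissociation, had no member called: they summed to 87.1 and 190 CPM in control and 88.2 and 147 CPM in cKO DPbla cells, and were higher in mouse 2 of each group.

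Each of the 4 alternatives without a library kept the direction of Myc in DPbla, but the call was lost without cKO 1 (log2 fold change 1.61, edgeR adjusted p = 0.134) and without cKO 2 (1.51, edgeR adjusted p = 0.183), where 1 and 3 genes in all were called. In DPre the call held without each library, with log2 fold changes between 1.14 and 1.98.

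Mycn moved the other way in blasts. It had 6.34 and 7.26 CPM in control and 1.16 and 2.14 CPM in cKO DPbla cells, from 26, 43, 9 and 23 UMIs. Both cKO libraries lay below both controls, as they did for 28.4% of all genes tested. The log2 fold change was -1.95 ± 0.35 (edgeR adjusted p = 0.00903), in a class where 0.856% of genes were called lower in cKO. Cluster 11 had the largest difference (9.14 and 11.8 against 0.424 and 2.71 CPM, log2 fold change -2.60 ± 0.54, edgeR adjusted p = 0.0230). These values came from 15 and 24 against 1 and 8 UMIs. Cluster 7 had 6.34 and 4.74 against 1.81 and 2.41 CPM without a call (-1.25 ± 0.52, edgeR adjusted p = 0.282). Cluster 12, where Mycn was not tested, had 1.92 and 5.06 against 0.956 and 1.06 CPM, from 2 and 9 against 2 and 3 UMIs. In DN cells Mycn had 21.2 and 17.3 against 10.3 and 10.3 CPM (-0.84 ± 0.35, edgeR adjusted p = 0.590). Both cKO libraries again lay below both controls, as for 20.8% of all genes tested in DN. The genotype change in DPbla and in DN differed by -1.12 ± 0.52 (edgeR adjusted p = 0.445), which does not separate the 2 classes.

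Unthinned, 5.30% and 6.91% of control and 1.27% and 1.85% of cKO DPbla cells had a Mycn UMI, and after thinning 0.758% and 0.675% against 0.141% and 0.337% (exact permutation p = 0.3333, two-sided, the smallest possible). None of the MPS or B cells had one, at the lower depth of those cells. The Mycn call in DPbla was lost without cKO 1 (edgeR adjusted p = 0.218) or without cKO 2 (0.255), with log2 fold changes of -1.63 and -2.5, and DESeq2 gave no adjusted p for this count. Myc and Mycn thus moved in opposite directions in the same blasts, Myc from 13.5 to 21.5 CPM in control to 46.9 to 50.2 CPM in cKO, and Mycn from 6.34 to 7.26 CPM to 1.16 to 2.14 CPM.

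None of the repressors was called by edgeR in any of the 6 classes under the settings used above, and Mxd3 had the lowest adjusted p. Other settings did call it: with the replicate number as a block in DN (edgeR adjusted p = 0.0268) and DPre (0.00225), without the low-count filter in DN (0.0175), DPre (0.0155) and CD8SP (0.00602), without doublet removal in DN (0.0408), and without control 1 in DPre (0.0258). In DN cells it had 3.03 and 1.82 CPM in control and 11.6 and 12.3 CPM in cKO libraries, from 2, 2, 17 and 31 UMIs (log2 fold change 2.38 ± 0.59, edgeR adjusted p = 0.190). Cycling markers had 302 and 260 against 612 and 535 CPM in the same DN cells, with Top2a (1.27 ± 0.16) and Mcm3 (1.11 ± 0.18) called, and their part in the Mxd3 difference was not tested. The same markers were higher in cKO DPre cells (231 and 155 against 303 and 285 CPM, with Top2a and Pclaf called) and had 441 and 972 against 1189 and 981 CPM in CD8SP, where control 1 was lowest, as it was for Mxd3; none was called in CD8SP. In DPre, Mxd3 had 6.89 and 5.39 against 10.4 and 9.83 CPM (0.77 ± 0.21, edgeR adjusted p = 0.0904), and in CD8SP 8.15 and 20.05 against 32.8 and 30.01 CPM (1.10 ± 0.31, edgeR adjusted p = 0.367). The CD8SP value ranged from 0.63 without control 1 (edgeR adjusted p = 0.624) to 1.93 without control 2, where it was called (edgeR adjusted p = 2.5e-05). Both groups were separate in these 3 classes, as both cKO libraries lay above both controls in 16.7%, 18.5% and 20.2% of all genes tested in DN, DPre and CD8SP. In DPbla, where Mxd3 is abundant, the order was opposite, with 180 and 165 CPM in control and 156 and 129 CPM in cKO libraries (-0.24 ± 0.11, edgeR adjusted p = 0.338). The genotype change of Mxd3 was larger in DPre than in DPbla by 1.02 ± 0.19 on the log2 scale (edgeR adjusted p = 0.0164, 0.336% of genes called), a call that was lost when control 2, cKO 1 or cKO 2 was left out (edgeR adjusted p = 0.0857, 0.0982 and 0.254). The summed cycling markers ran the same way by genotype, higher in cKO DPre and lower in cKO DPbla cells (5717 and 5626 against 5318 and 5179 CPM), and their part in this difference was not tested.

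Mxi1 was lower in both cKO libraries than in both controls in all 6 classes, yet it was called in none under these settings. In DPre it was called with the replicate block (-0.34 ± 0.10, edgeR adjusted p = 0.0115). With 1 library left out, its log2 fold change in DPre ran from -0.54 (without control 1) to -0.13 (without control 2). It had 81.3 and 106 CPM in control against 67.4 and 76.0 CPM in cKO DPre cells (log2 fold change -0.35 ± 0.13, edgeR adjusted p = 0.217) and 51.2 and 54.7 against 40.6 and 49.9 CPM in DPbla (-0.18 ± 0.13). In DPsel it had 35.9 and 40.1 against 24.6 and 33.1 CPM, and in DN 37.9 and 44.6 against 23.3 and 34.0 CPM. The CD4SP levels were 18.2 and 20.9 CPM in control and 13.3 and 14.3 CPM in cKO, and the CD8SP levels 16.3 and 20.5 CPM in control and 11.1 and 11.7 CPM in cKO. The classes come from the same 4 mice and are not independent. Of all genes tested, both cKO libraries lay below both controls in 28.3% in DPre, 28.4% in DPbla, 21.0% in DPsel, 20.8% in DN, 16.5% in CD4SP and 16.9% in CD8SP.

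Max had 74.3 and 75.5 CPM in control and 56.2 and 57.4 CPM in cKO DN cells (log2 fold change -0.37 ± 0.18, edgeR adjusted p = 0.675), and 84.3 and 88.6 against 71.4 and 72.3 CPM in DPre (-0.23 ± 0.10, edgeR adjusted p = 0.321). Its remaining log2 fold changes lay between -0.14 and -0.07. Both cKO libraries lay below both controls for Max in DN, DPre, DPsel and CD8SP, as for 20.8%, 28.3%, 21.0% and 16.9% of all genes tested. Mxd4, despite its high counts (24012 UMIs in DPre), had log2 fold changes between -0.06 and 0.17 in the 6 classes, with an SE of 0.10 to 0.13. Mxd1 lay between -0.46 and 0.46, with -0.06 ± 0.13 in DPre. Both cKO libraries lay below both controls for Mxd1 in DPbla, DPre, CD4SP and CD8SP, as for 28.4%, 28.3%, 16.5% and 16.9% of all genes tested. Mnt lay between -0.27 and 0.36, and its groups overlapped in all 6 classes. A call missed at these depths does not show that a repressor stayed at the same level.

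Genes that MYC is known to activate were then read from a list of 57, mostly of ribosome biogenesis. In DPbla, 16 of the 55 measured genes were called and each was higher in cKO (29.1%, against 1.63% of all genes called higher). The median log2 fold change of the list was 0.39, against 0.00 for all genes tested, and 48 of 55 had a value above 0. Srm, the spermidine synthase gene, had 26.6 and 23.99 CPM in control and 59.7 and 52.3 CPM in cKO libraries (log2 fold change 1.20 ± 0.13, edgeR adjusted p = 0.000410). Mybbp1a, for a nucleolar protein of rRNA synthesis, had 23.4 and 29.7 against 46.5 and 61.9 CPM (1.06 ± 0.16, edgeR adjusted p = 0.00509), and Gnl3, the nucleolar GTPase nucleostemin, had 43.9 and 66.2 against 98.1 and 105 CPM (0.91 ± 0.16, edgeR adjusted p = 0.00841). Rrp12 (1.55 ± 0.39), Rrp9 (0.85 ± 0.17) and Grwd1 (0.82 ± 0.20), which act in ribosomal subunit assembly or export, complete the 6 called genes with the largest change. Within single blast clusters, 9 of 55 target genes were called in cluster 7, 1 of 49 in cluster 11 and 1 of 52 in cluster 12, all higher. Of all genes, 1.09%, 0.253% and 0.301% were called higher there. The list medians were 0.37, 0.30 and 0.25.

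**Figure D4:**
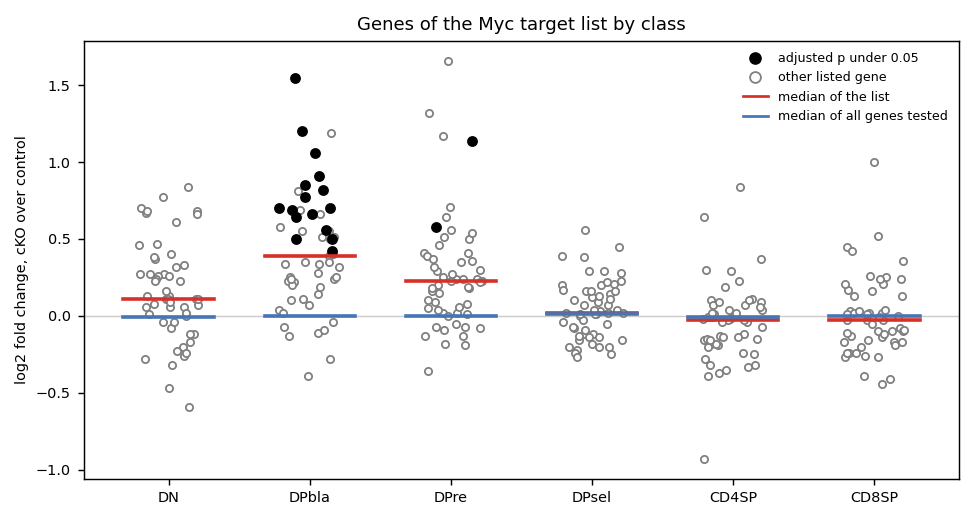
Log2 fold change of cKO over control (y axis) of the listed MYC target genes in each class (x axis); each point is 1 gene, filled where the adjusted p is under 0.05, with the median of the list and of all genes tested as lines. Filled points appear in DPbla (16) and DPre (2), where the list median is 0.39 and 0.23, and the 2 medians lie together in DPsel, CD4SP and CD8SP.

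The E-box was in 6 of the 14 promoter windows of the called target genes (13 of the 16 genes had a window), and in 16 of the 57 windows of the whole list. One site of each of these 6 genes is shown, to be set beside those of Max, Mxd4 and Mnt above, again 5′ to 3′ with the E-box in capitals.
Mybbp1a, chromosome 11, 72441355 to 72441376, plus strand: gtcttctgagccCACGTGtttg
Grwd1, chromosome 7, 45830740 to 45830767, minus strand: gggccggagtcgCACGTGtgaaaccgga
Wdr43, chromosome 17, 71616220 to 71616249, plus strand: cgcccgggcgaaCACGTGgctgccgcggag
Hspd1, chromosome 1, 55088306 to 55088335, minus strand: ggccggctgggaCACGTGaaaaggccgcgc
Exosc5, chromosome 7, 25659097 to 25659126, plus strand: taaacgctgagcCACGTGctagggccaact
Cdk4, chromosome 10, 127063512 to 127063541, plus strand: aagggtgaagatCACGTGtccagaacgtcc
Cdk4, the G1 kinase gene, had 4 such sites in its window, and its level was 225 and 222 CPM in control and 298 and 280 CPM in cKO DPbla cells (log2 fold change 0.42 ± 0.10, edgeR adjusted p = 0.0423).

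In DPre, where Myc changed by a similar amount, 2 of 55 target genes were called (3.64%, against 0.831% of all genes called higher). These were Srm, with 8.56 and 8.12 CPM in control and 18.5 and 17.4 CPM in cKO libraries (log2 fold change 1.14 ± 0.16, edgeR adjusted p = 0.00371), and Dctpp1, a nucleotide pyrophosphatase gene (0.58 ± 0.12, edgeR adjusted p = 0.0348). The list median was 0.23, and 44 of 55 genes had a value above 0. The count of called genes in DPre changed with the settings, as given below. The difference between DPre and DPbla was not tested for the list. In all DP cells summed, 18 of 56 were called, all higher (3.55% of all genes were called higher), and the median was 0.29. The part of the larger blast share of cKO libraries in this count was not tested. Mcm5, of the replication helicase, was called there (log2 fold change 0.54 ± 0.10). Within the stages it had 0.07 ± 0.10 in DPbla, 0.39 ± 0.16 in DPre and 0.29 ± 0.15 in DPsel, none called. None of 53 target genes was called by edgeR in DN (median 0.11), and none in DPsel (median 0.02), CD4SP (-0.03) or CD8SP (-0.03), at a background of 0.0341%, 0.270%, 0.204% and 0.0220% of all genes called. These counts say nothing about the list. An unadjusted p under 0.05 was found for 10 of 53 target genes in DN (7.60% of all genes tested there), 3 of 55 in DPsel (9.07%), 3 of 53 in CD4SP (7.94%) and 2 of 53 in CD8SP (6.94%). The call count in DPbla was 0 without either cKO library, where the fits called 1 and 3 genes in all, and 10 to 17 without a control library.

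The other genes around the network were read in 3 short lists, at a background of 2.48% of all genes called in DPbla, 1.45% in DPre and at most 0.270% in the other classes. A count of 0 is near this background and says nothing about a list. None of the 13 cofactors and corepressors, among them Sin3a, Sin3b, Hdac1, Hdac2 and Trrap, was called by edgeR in any of the 6 classes, with medians between -0.06 and 0.02. The 3 measured genes of the extended network (Mga, Mlx and Mlxip; Mlxipl was not tested) were not called either, with medians between 0.02 and 0.18. Of the 9 genes for enzymes that modify or degrade MYC, such as the ubiquitin ligase genes Fbxw7 and Huwe1, none was called in a single class, and Skp2 was higher in all DP cells summed (20.3 and 19.98 against 27.5 and 28.3 CPM, log2 fold change 0.52 ± 0.11, edgeR adjusted p = 0.0132). Within the stages Skp2 had 0.21 ± 0.12 in DPbla, 0.15 ± 0.17 in DPre and 0.07 ± 0.24 in DPsel, none called. The part of the larger blast share in the summed value was not tested. At an unadjusted p under 0.05, DPbla had 4 of 13, 1 of 3 and 2 of 9 of the genes in these lists, against 15.4% of all genes tested.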

How the data were processed

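Whole thymocytes of 2 control and 2 cKO mice were sequenced, and the authors deposited UMI counts per gene and cell made with Cell Ranger 6.1.1 on mm10, per the file headers and the labels. Counts were used as deposited. Cells with at least 200 genes, at most 10% mitochondrial UMIs and UMI totals within the central range of the library (2.5% cut from each tail) were kept, and the 5% of cells with the highest Scrublet doublet score were removed. Clusters (scanpy 1.11.5, 3000 variable genes without the 9 members, 30 components, resolution 1) were named by marker lists; clusters of far lower UMI count than their libraries stayed unnamed, a rule set after the clusters were seen. Counts were summed per library and class and tested with edgeR 4.0.16 (TMM, filterByExpr, genotype as the single term); alternatives included DESeq2 1.42.0. Cells are not replicates, and the replicate is the mouse. Analyses were tested on simulated data. The SE of a fold change is its size divided by the square root of F. Named genes were all 9 members, at most 6 called genes per list and class, and the 4 genes most like each of 4 members; Cdk4, the E-box genes, and the named markers and list examples were chosen beyond this rule after values were seen. The members, lists and tests were chosen with earlier results of these data known, including the Mycn change in DPbla, and the target list was written from general knowledge of MYC.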

Additional observations from a re-analysis of the deposited data

Results flagged for a closer look

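The genotype change of Myc differed between neighbouring stages by a test of the difference itself: it was larger in DPbla than in DN by 1.75 on the log2 scale, and the difference between DPsel and DPre was -1.41, a call that was lost without control 1 (edgeR adjusted p = 0.251) or control 2 (edgeR adjusted p = 0.0523). The genotype change of Mxd3 was larger in DPre than in DPbla by 1.02, a call that was lost without control 2, cKO 1 or cKO 2 (edgeR adjusted p = 0.0857, 0.0982 and 0.254). Outside the classes compared, Mycl had 41 UMIs in cluster 13, from all 4 libraries (9.24 to 34.7 CPM). This cluster stayed unnamed because it held markers of phagocytes, erythroid cells and neutrophils together. The 6 αβ classes held 4 Mycl UMIs and the MPS class 10. Of these 10, 8 lay in cluster 24 (46 cells, led by Siglech), at 27.9 CPM over the summed libraries against 24.8 in cluster 13.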

How the results depend on the processing

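Replicate numbers were not shown to pair the mice: the study describes its mice as pairs of control and cKO, but the labels do not say that a number marks a pair, and deviations of same-numbered libraries correlated by 0.0807 to 0.2301 over classes. With the replicate number as a block, called genes rose to 106 (DN), 1083 (DPbla), 1120 (DPre), 355 (DPsel), 133 (CD4SP), 50 (CD8SP) and 1957 (all DP), called members to 3 in DPre and 4 in all DP, and target genes to 32 in DPbla and 14 in DPre. The main counts of genes called were 3, 264, 171, 29, 19, 2 and 734. Without the low-count filter they were 76, 584, 608, 154, 0, 104 and 1227, with 2 members called in DPre, 4 in all DP, and 26 and 9 target genes in DPbla and DPre. DESeq2 called 12 genes in CD4SP, 1 in CD8SP, 1 member each in DPbla and all DP, and 1 target gene in DPre, and Mycn in all DP was lost (-1.52). At a mitochondrial limit of 5%, 69 genes were called in DPbla, 1 in DPsel and 12 in CD4SP, 1 member each in DPbla and all DP, 7 target genes in DPbla and 0 in DPre, Mycn in all DP was lost (-1.20), and DN, CD8SP, Mycn in DPbla and Mxd3 in DPsel and CD4SP gave no value. Without doublet removal, 51, 146 and 31 genes were called in DN, DPbla and CD8SP and 10 target genes in DPbla. Mxd3 in CD8SP gave no value without doublet removal or at resolution 1.5. At resolution 1.5, CD8SP had 42 calls and DPbla 10 target genes, and with members kept for clustering 269, 17 and 19 genes were called in DPre, DPsel and CD8SP. In cluster 7 alone, Mycn was -1.25 and lost.

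Leaving out 1 library at a time, called genes ranged from 23 to 59 (DN), 1 to 456 (DPbla), 34 to 358 (DPre), 46 to 95 (DPsel), 0 to 66 (CD4SP) and 13 to 172 (CD8SP), called members from 0 to 2 (DPbla), 1 to 3 (DPre) and 1 to 4 (all DP), and target genes from 0 to 17 (DPbla) and 1 to 7 (DPre). The log2 fold change ranged from 1.27 to 1.87 (Myc) and -2.50 to -1.63 (Mycn) in DPbla and from -2.08 to -1.16 for Mycn in all DP, where the call was lost without control 2 or cKO 1. The differences between classes ranged from 0.87 to 1.14 for Mxd3 and from -1.56 to -1.29 for Myc between DPsel and DPre, which was lost without control 1 or control 2. Among members that were not called, signs changed for Myc in DN (-0.58 to 0.14), DPsel (-0.33 to 0.57) and CD4SP (-0.64 to 0.18), Max in DPbla (-0.25 to 0.08), Mxd1 in DN (-0.08 to 0.82) and DPsel (-0.25 to 0.06), Mxd3 in DPsel (-0.17 to 0.39) and CD4SP (-0.58 to 0.61), Mxd4 in DPbla (-0.18 to 0.05), DPsel (-0.07 to 0.20), CD4SP (-0.09 to 0.13) and all DP (-0.12 to 0.10), and Mnt in DN (-0.34 to 0.13), DPre (-0.21 to 0.22), DPsel (-0.09 to 0.19), CD4SP (-0.73 to 0.08), CD8SP (-0.19 to 0.27) and all DP (-0.15 to 0.23). Signs also changed at the 5% limit for Max (0.13) and Mxd4 (0.14) in DPbla, Mxd1 in DPre (0.02) and DPsel (0.52) and Mnt in DPsel (-0.70), without doublet removal for Mxd3 in DPsel (-0.02), Mxd4 in all DP (0.01) and Mnt in CD8SP (-0.08), at resolution 1.5 for Mnt in CD8SP (-0.01), and with members kept for Max in CD8SP (0.01). Of 584 values of uncalled members, 534 kept their sign and side of the threshold. The block called Mxd3 in DN (2.38) and DPre (0.78) and Mxi1 in DPre (-0.34). The causes were not tested.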

Other observations

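Cluster 13 also had the highest Mxd1 level of the clusters with at least 100 cells, with 91.6 to 127 CPM in the 4 libraries. The low-UMI cluster 6 (1687 cells, unnamed) held cycling markers and had Myc at 65.3 and 61.6 CPM in control and 74.7 and 67.1 CPM in cKO libraries, and Mxd3 at 56.6 to 108 CPM. In the interferon-led cluster 20 of DPre, the 4 Myc values lay between 0 and 34.7 CPM from 10 UMIs in all.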
